A study of Homo sapiens with 12 samples.

Results

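The 10 mRNAs described here encode the machinery that removes the 5′ cap of an mRNA and then degrades the body from that end: the exonucleases XRN1 and XRN2, the decapping enzyme DCP2 with its partners DCP1A and DCP1B, the enhancers EDC3 and EDC4, and the activators LSM1, PATL1 and DDX6. They were chosen by name, with earlier results of these data known. All 10 were among the 22379 genes of the table, of which 13811 had an untreated mean of at least 10 and were tested. All 10 passed that minimum.

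Bulk cytoplasmic mRNA decay usually begins with shortening of the poly(A) tail, after which the LSM1-7 ring and PATL1 bind the shortened 3′ end and recruit the decapping enzyme. DCP2 hydrolyses the cap, DCP1 proteins and the enhancers EDC3 and EDC4 activate it, and the helicase DDX6 ties the complex to translational repression and to cytoplasmic granules called P-bodies. XRN1 then digests the decapped RNA in the cytoplasm, whereas its relative XRN2 works in the nucleus, where it trims RNAs and removes the uncapped RNA left behind RNA polymerase II at the ends of genes.

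The study asked how cells die when RNA polymerase II is inhibited, and 12 libraries of polyadenylated RNA were made from U2OS, an osteosarcoma line of human origin. The cells received a plasmid with Cas9 and either a nontargeting guide (NONT) or a guide that cuts NUP93, a nuclear pore protein (NUP93-KO), or EXOSC5, which belongs to the exosome, the complex that degrades RNA 3′ to 5′ (EXOSC5-KO). Each of the 3 genotypes was left without drug (the labels call these libraries untreated and also list DMSO) or given 1 μM triptolide for 8 h, with 2 replicates in each of 6 groups. Triptolide binds the XPB helicase of TFIIH and blocks initiation by RNA polymerase II. All groups, NONT included, carried Cas9, passed through puromycin selection and were uncloned pools, so that each knockout pool may hold cells with an intact target. The methods give the NUP93 and EXOSC5 pools a shorter selection and expansion than all other pools, and NONT is among the pools listed. If NONT was handled like those others, genotype cannot be told apart from the time of selection and expansion. The labels do not say that replicates were separate cultures, so p-values measure only the spread between these libraries, which may be technical.

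The guides are shown because they define the genotypes. Each is written 5′ to 3′, with the NGG motif that follows it in the genome (GRCh38) in capitals. The nontargeting guide has no genomic target and no motif.
NUP93 guide: gaacttacaggagatccagcAGG
EXOSC5 guide: gaagttcttaccttgcaggaAGG
NONT guide: cggcggtcacgaactccagc
The NUP93 guide matched the plus strand at chr16:56748340-56748359, with its cut in coding exon 2. The EXOSC5 guide matched the plus strand at chr19:41397170-41397189, with its cut in coding exon 1 of a gene on the minus strand.

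Values are the deposited signal, scaled by the authors on ERCC spike-in RNAs that were added in proportion to the number of cells, so they follow mRNA per cell. Approximate depth was 8.56 to 11.9 M reads per library, and 1 read was worth 0.490 to 1.76 units. All genes together differed between replicates by a median of −0.51 on the log2 scale in untreated NONT (first minus second replicate) and of 0.25 in treated NONT, against −0.14 to 0.11 in the other groups. EXOSC5 stood at 216 and 148 in untreated EXOSC5-KO against 299 and 481 in untreated NONT, without overlap (log2 difference −1.08 ± 0.29 (SE), adjusted p = 0.151), and NUP93 stood at 1395 and 1432 in untreated NUP93-KO against 1753 and 2489 (−0.56 ± 0.20, adjusted p = 0.926, both by limma with Benjamini-Hochberg adjustment). Under triptolide EXOSC5 was lower in EXOSC5-KO than in NONT (−1.42 ± 0.29, adjusted p = 0.00302), whereas NUP93 overlapped between NUP93-KO and NONT (−0.074 ± 0.20, adjusted p = 0.767); an edited mRNA need not be lost, so mRNA is a weak check of these pools. All 6 mesenchymal and osteoblast-lineage markers were above 0 in every library, with sums of 110509 to 170392 untreated and 52135 to 96301 treated. COL1A2 was low at 4.05 to 42.0. The 2 epithelial markers summed to 33.9 to 117, the blood gene PTPRC reached at most 4.70, and the liver gene ALB reached at most 6.65.

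Triptolide lowered the mRNAs of all 10 factors in NONT and EXOSC5-KO and of 9 in NUP93-KO on the spike-in scale, with XRN2 the one member that did not pass the test in NUP93-KO; on a scale that sets the typical gene to no change, XRN2, EDC4, LSM1 and PATL1 turned above 0 in each genotype, and of these XRN2 passed the test. Most genes behaved alike: at an adjusted p under 0.05 in limma, 90.0% of all tested genes were lower in NONT, and for NUP93-KO and EXOSC5-KO the shares were 55.1% and 64.3%. The treated and untreated libraries of a genotype did not overlap for any member in any genotype, which for lower values also held for 94.8% of all tested genes in NONT, with 79.1% and 88.0% for the NUP93 and EXOSC5 pools. Without the second untreated NUP93-KO library 5 members and 42.5% of all genes were lower in that genotype, as XRN1, DCP2, EDC4 and LSM1 lost the call, and LSM1 also lost it without the second treated one (−0.74). Bulk RNA cannot tell less RNA per cell from fewer cells that express a gene. The members kept between 10.2% (DCP1B) and 44.3% (XRN2) of their untreated level in NONT, with a median of 23.4%. The medians for NUP93-KO and EXOSC5-KO were 46.4% and 37.4%.

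**Figure D1:**
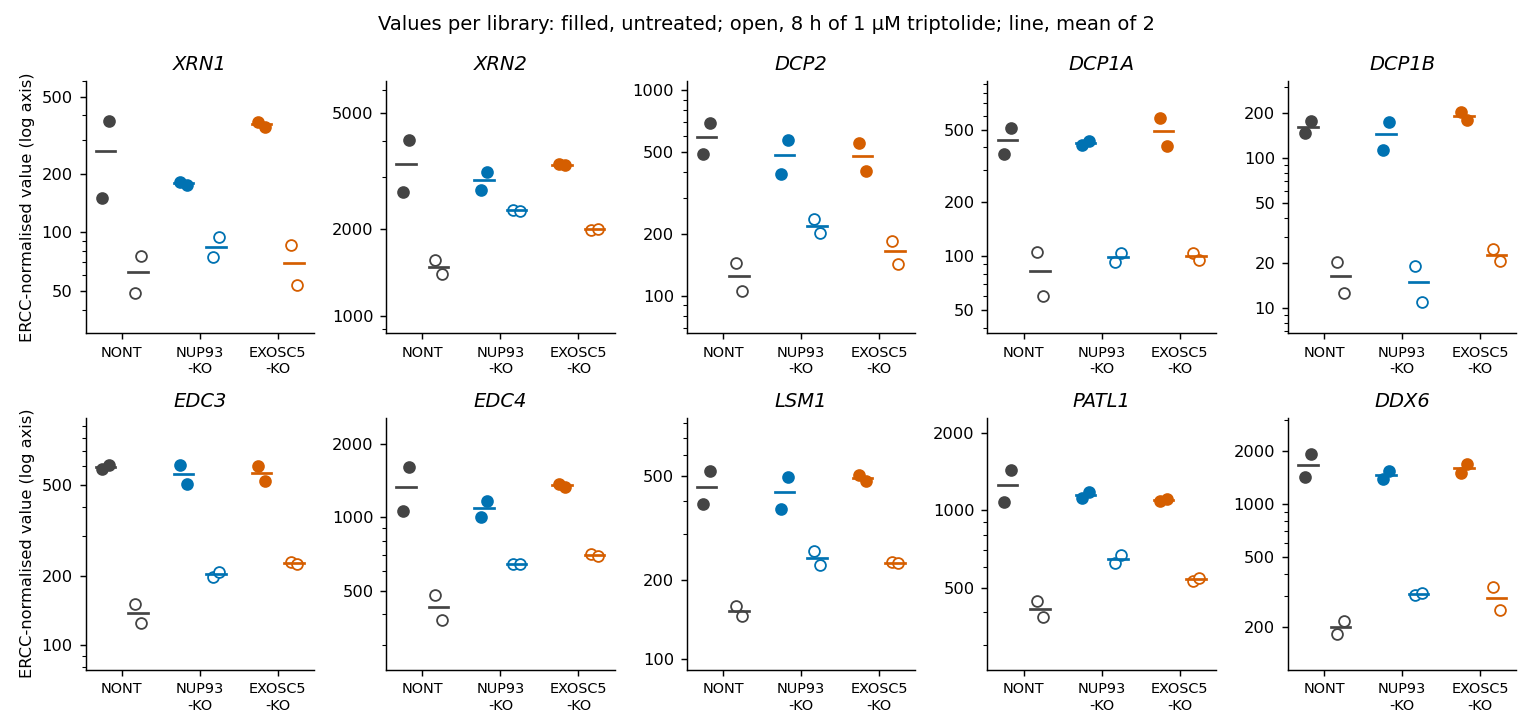
Spike-in-normalised value (log axis) of each of the 10 members in every library, by genotype and treatment; each point is 1 library (filled untreated, open triptolide) and lines are the mean of 2. In every panel the treated points sit below the untreated points of the same genotype, and the separation is widest for DCP1B and DDX6 and narrowest for XRN2.

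Both exonucleases fell in NONT on the spike-in scale, whereas after median-of-ratios rescaling XRN2 was higher. XRN1, the cytoplasmic enzyme (ENSG00000114127, chromosome 3, 142306607 to 142448062, minus strand of GRCh38, 41 exons), was without drug the least abundant member per kilobase of transcript. It read 149 and 376 in untreated NONT and 48.4 and 75.7 after triptolide. The NUP93-KO libraries gave 182 and 175 before and 74.4 and 94.6 after the drug, and the EXOSC5-KO libraries held 372 and 348 before and 85.7 and 53.3 after. The untreated NONT replicates of XRN1 lay further apart than any other pair of the gene, and the untreated EXOSC5-KO replicates were close to each other. The log2 response in NONT, NUP93-KO and EXOSC5-KO was −1.95, −1.08 and −2.39, each ± 0.39 (SE), with adjusted p-values of 0.000207, 0.0255 and 4.94e-05 (limma). Without the second untreated NONT replicate the NONT response of XRN1 was −1.29, and the NUP93-KO response was not called without either untreated or without the first treated library of that genotype (−1.05, −1.11 and −0.91).

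XRN2, the nuclear enzyme (ENSG00000088930, chromosome 20, 21303331 to 21389825, plus strand, 30 exons), was the most abundant member per kilobase and kept the largest share of its signal in every genotype. XRN2 read 2665 and 4016 in untreated NONT and 1560.4 and 1399 after triptolide. Values in NUP93-KO were 2717 and 3136 before and 2323 and 2303 after the drug, and the EXOSC5-KO libraries held 3327 and 3305 before and 1984 and 1993 after. The treated NUP93-KO libraries were close to their untreated counterparts, although they did not overlap. The log2 response was −1.15 ± 0.20 in NONT (adjusted p = 5.09e-05), −0.74 ± 0.20 in EXOSC5-KO (adjusted p = 0.00363) and −0.34 ± 0.20 in NUP93-KO (adjusted p = 0.159, limma). The NUP93-KO response passed the test, with the same size, when either untreated NONT library was left out, because the pooled spread was then smaller. Per kilobase of transcript, XRN1 was 2.53% of XRN2 in untreated NONT on average and 1.44% after triptolide. It went from 2.08% to 1.24% in NUP93-KO and from 3.67% to 1.18% in EXOSC5-KO. The groups did not overlap, but in NONT they nearly touched, at 1.90% (first untreated library) and 1.83% (second treated library). The log2 changes of the ratio were −0.82, −0.75 and −1.67 (SD over the pairings of libraries 0.63, 0.26 and 0.40). The pair of XRN1 and XRN2, like the other ratios below, was chosen after the values were seen, and other pairs of genes were not examined. The ratio does not depend on the spike-in.

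The catalytic subunit DCP2 (ENSG00000172795, chromosome 5, 112976702 to 113022195, plus strand, 11 exons) fell in all 3 genotypes. DCP2 read 492 and 694 in untreated NONT and 146 and 106 after triptolide. With the NUP93 guide the values were 393 and 575 before and 237 and 203 after the drug, and the EXOSC5-KO libraries held 556 and 405 before and 186 and 144 after. Its log2 response in NONT, NUP93-KO and EXOSC5-KO was −2.23, −1.11 and −1.53, each ± 0.28, with adjusted p-values of 1.91e-06, 0.00278 and 0.000165 (limma). Both treated NUP93-KO libraries held more DCP2 signal than any treated library of the other genotypes. Against treated NONT the log2 difference was 0.82 for DCP2 and 0.66 for the median gene, and by median-of-ratios it was 0.15 for DCP2.

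Both DCP1 proteins bind DCP2 and stimulate it, and their mRNAs fell in every genotype. DCP1A (ENSG00000272886, chromosome 3, 53283429 to 53347586, minus strand, 10 exons) read 369 and 511 in untreated NONT and 105 and 60.0 after triptolide. For NUP93-KO the libraries stood at 409.9 and 431 before and 92.3 and 105 after the drug, and the EXOSC5-KO libraries held 582 and 408 before and 104 and 95.2 after. The treated DCP1A libraries of the 3 genotypes overlapped one another. The log2 responses were −2.43, −2.09 and −2.28, each ± 0.30, with adjusted p-values of 1.34e-06, 1.48e-05 and 5.07e-06.

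DCP1B (ENSG00000151065, chromosome 12, 1946053 to 2004535, minus strand, 9 exons), the paralog of DCP1A, had the deepest loss of the members in every genotype, although its difference from DDX6 was not tested. DCP1B read 147 and 177 in untreated NONT and 20.3 and 12.5 after triptolide. The NUP93-KO libraries gave 114 and 175 before and 19.1 and 10.9 after the drug, and the EXOSC5-KO libraries held 204 and 179 before and 24.7 and 20.5 after. Its log2 responses were −3.25, −3.20 and −3.03, each ± 0.41, with adjusted p-values of 1.74e-06, 4.38e-06 and 6.94e-06 (limma). The treated values rest on few reads, with a lowest estimate of 10.9 reads, and the row of DCP1B was identical in all 12 libraries to that of a gene ID without a symbol (ENSG00000284850), so its level is uncertain. Per kilobase, DCP1B was 108% of DCP1A in untreated NONT and 58.5% after triptolide, with 99.6% and 45.4% for NUP93-KO and 115% and 66.2% for EXOSC5-KO, without overlap in any genotype. The log2 changes of this ratio were −0.89, −1.19 and −0.79 (SD over the pairings 0.14, 0.65 and 0.21). DCP1B and DCP1A were paired after the values were seen, so the separation is a description.

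The enhancers of decapping EDC3 and EDC4 scaffold the enzyme complex. EDC3 (ENSG00000179151, chromosome 15, 74630558 to 74696292, minus strand, 7 exons) read 585 and 611 in untreated NONT and 151 and 125 after triptolide. Values in NUP93-KO were 610.5 and 503 before and 199 and 208 after the drug, and the EXOSC5-KO libraries held 604 and 521 before and 230.0 and 225 after. The treated EDC3 values were lowest in NONT. EDC4 (ENSG00000038358, chromosome 16, 67873052 to 67884499, plus strand, 29 exons) read 1066 and 1603 in untreated NONT and 479 and 378 after triptolide. With the NUP93 guide the values were 1007 and 1169 before and 640.1 and 640.3 after the drug, and the EXOSC5-KO libraries held 1373 and 1329.7 before and 707 and 691 after. For both genes the treated libraries of each knockout lay above both treated NONT libraries. The median gene was also higher in treated NUP93-KO and EXOSC5-KO than in treated NONT, by 0.66 and 0.65 on the log2 scale. By median-of-ratios EDC3 differed by −0.11 and 0.059 and EDC4 by −0.087 and 0.047, and none passed the test. The log2 responses of EDC3 were −2.11, −1.44 and −1.30 (each ± 0.22; adjusted p = 1.95e-07, 2.74e-05 and 6.99e-05) and those of EDC4 were −1.62, −0.76 and −0.95 (each ± 0.21; adjusted p = 3.09e-06, 0.00585 and 0.000959, limma), in the order NONT, NUP93-KO and EXOSC5-KO.

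LSM1 and PATL1 act together at the deadenylated 3′ end. LSM1 (ENSG00000175324, chromosome 8, 38163335 to 38176730, minus strand, 4 exons), the subunit that makes the LSM ring cytoplasmic, read 389.9 and 523 in untreated NONT and 159.6 and 146 after triptolide. For NUP93-KO the libraries stood at 375 and 496 before and 258 and 229 after the drug, and the EXOSC5-KO libraries held 505 and 480.2 before and 234 and 233 after. Its treated NONT libraries lay below all other treated ones. The median gene was likewise higher in treated NUP93-KO and EXOSC5-KO than in treated NONT (log2 0.66 and 0.65). By median-of-ratios LSM1 differed by −0.00094 and −0.051. PATL1 (ENSG00000166889, chromosome 11, 59636716 to 59669037, minus strand, 19 exons), a scaffold between the ring and the decapping enzyme, read 1078 and 1432 in untreated NONT and 443 and 383 after triptolide. The NUP93-KO libraries gave 1120.2 and 1180.0 before and 622 and 671 after the drug, and the EXOSC5-KO libraries held 1084 and 1110.3 before and 528 and 547 after. Their responses were close to those of the median gene, at −1.62 (NONT), −0.92 (NUP93-KO) and −1.08 (EXOSC5-KO). LSM1 had log2 responses of −1.56, −0.82 and −1.07 (each ± 0.23; adjusted p = 1.23e-05, 0.00632 and 0.000757), and PATL1 of −1.59, −0.83 and −1.03 (each ± 0.19; adjusted p = 1.27e-06, 0.00151 and 0.000206, limma).

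DDX6 (ENSG00000110367, chromosome 11, 118747763 to 118791164, minus strand, 14 exons), the helicase, combined a high untreated level with a deep loss. It read 1419.5 and 1931 in untreated NONT and 184 and 217 after triptolide. Values in NUP93-KO were 1396 and 1532 before and 306 and 315 after the drug, and the EXOSC5-KO libraries held 1505 and 1685 before and 339.9 and 251 after. The treated DDX6 values were a small part of the untreated ones in every genotype, 11.98% (NONT), 21.2% (NUP93-KO) and 18.5% (EXOSC5-KO). Its log2 responses were −3.04, −2.23 and −2.44, each ± 0.22, with adjusted p-values of 2.75e-09, 2.32e-07 and 7.92e-08 (limma). Per kilobase, DDX6 was 89.8% of PATL1 in untreated NONT and 33.1% after triptolide, with 85.7% and 32.4% for NUP93-KO and 97.9% and 37.2% for EXOSC5-KO, again without overlap in any genotype. The log2 changes of this ratio were −1.46, −1.41 and −1.42 (SD over the pairings 0.26, 0.052 and 0.29). DDX6 and PATL1 were likewise paired after the values were seen, so the separation is a description.

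**Figure D2:**
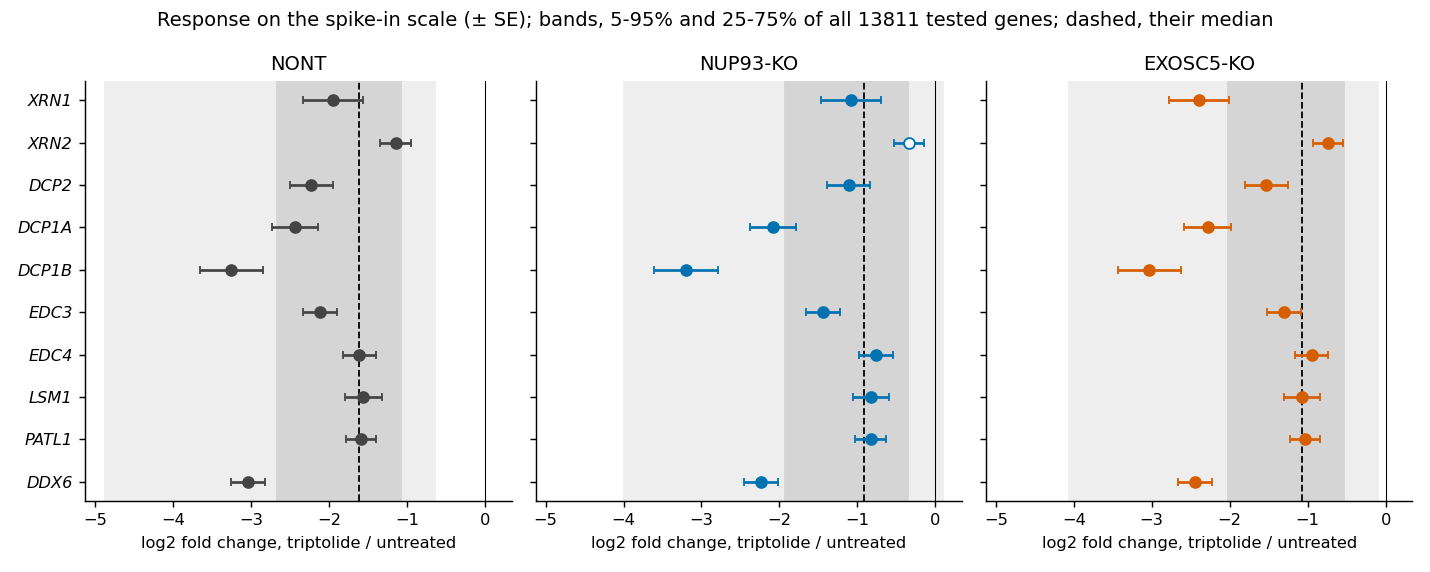
Log2 response to triptolide of each member (treated minus untreated, spike-in scale) in the 3 genotypes; points are limma estimates (open where the test was not passed), bars are ± 1 SE, grey bands hold the central 90% and 50% of all tested genes and dashed lines mark their median (−1.62, −0.92 and −1.08). DCP1B lies lowest and XRN2, which turns above 0 after median-of-ratios rescaling, lies highest among the members, and EDC4, LSM1 and PATL1 lie near the lines.

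Because most mRNAs fell, the members were also read against the other genes. The median member lay 0.41 below the median gene in NONT on the log2 scale, 0.18 below it in NUP93-KO and 0.34 below it in EXOSC5-KO (SD over the 4 pairings of treated and untreated libraries 0.082, 0.050 and 0.18), and 6 of the 10 members lay below it in each genotype. These medians moved by more than 1.5 times when single libraries were left out, to −0.25 without the first treated NONT library, −0.11 without the second untreated NUP93-KO library and −0.21 without the first untreated EXOSC5-KO library.

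When the libraries were rescaled by median-of-ratios factors, which set the typical gene to no change and ask only about relative abundance, the members differed in direction. The median of all genes, which had been −1.62 in NONT, was then −0.010, with NUP93-KO and EXOSC5-KO at −0.030 and −0.0089. DCP1A, DCP1B and DDX6 were lower in all 3 genotypes, with log2 responses of −0.79, −1.19 and −1.21 for DCP1A, of −1.65, −2.32 and −1.97 for DCP1B, and of −1.39, −1.33 and −1.36 for DDX6. EDC3 was lower in NONT (−0.47) and NUP93-KO (−0.54), DCP2 in NONT (−0.58) and XRN1 in EXOSC5-KO (−1.32). XRN2 was higher in all 3 on this scale (0.51, 0.57 and 0.34), the reverse of its direction on the spike-in scale. EDC4, LSM1 and PATL1 lay between 0.0059 and 0.14 and passed the test in no genotype. In all, 5, 4 and 4 members were lower, where 30.3%, 29.7% and 28.7% of all tested genes were, and 1 member was higher in each, where 27.2%, 26.7% and 26.2% of all genes were. With 10 members these counts are descriptions.

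**Figure D3:**
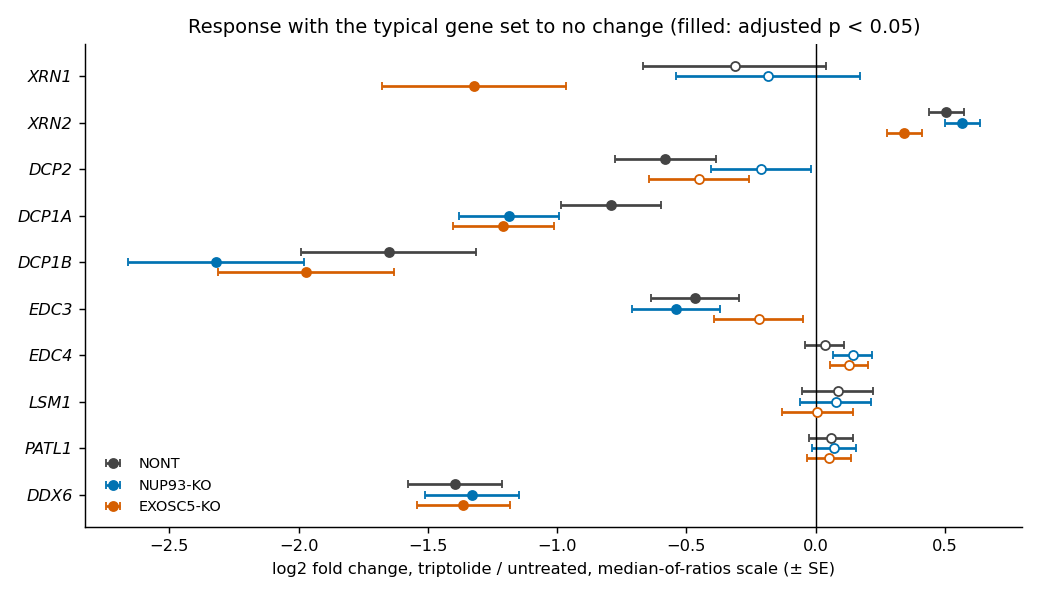
Log2 response to triptolide of each member after median-of-ratios rescaling, in the 3 genotypes (points, limma estimates; bars, ± 1 SE; open, not past the test; 0 is no change relative to the typical gene). DCP1A, DCP1B and DDX6 lie below 0 in all genotypes and XRN2 lies above 0, whereas on the spike-in scale XRN2 lay below 0.

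Levels of different members can be set side by side only per kilobase of transcript. On the spike-in scale and divided by the length of the canonical transcript, the order in untreated NONT was XRN2 (mean 980 per kilobase), LSM1 (504), PATL1 (304), EDC4 (280), DDX6 (273), EDC3 (160), DCP1B (79.5), DCP1A (74.2), DCP2 (58.7) and XRN1 (26.1). The libraries of PATL1 and EDC4, of EDC4 and DDX6, of DCP1B and DCP1A, and of DCP1A and DCP2 overlapped, so these neighbours could not be ordered. In treated NONT, XRN2 (434) and LSM1 (168) still led, DDX6 had fallen to 32.8, next to EDC3 at 36.9 with overlapping libraries, and DCP1B at 8.07 overlapped XRN1 at 6.16. In treated NUP93-KO, DCP1B (7.39) and XRN1 (8.38) overlapped at the bottom of the order too.

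The 3′ untranslated regions differed widely between members. The pentamer ATTTA, the core of AU-rich elements, was counted on the transcript strand of the canonical GENCODE transcript, with overlapping matches allowed. It occurred 28 times in the 8711 bases of DCP2, 14 times in XRN1 (4901 bases), 10 times in DCP1A (4151 bases), 9 times in DDX6 (4342 bases) and 4 times in PATL1 (1674 bases). LSM1 (331 bases) and XRN2 (487 bases) had 1 each, and DCP1B (153 bases), EDC3 (2054 bases) and EDC4 (351 bases) had none. Among 12934 tested genes with such a region, 74.3% held at least 1, 15.8% at least 10 and 3.96% at least 20, and the median was 2 in a median length of 1378.5 bases. These counts are not adjusted for length. Per kilobase of the region, DCP2 had 3.21, LSM1 3.02, XRN1 2.86 and DCP1A 2.41 matches. PATL1 had 2.39, DDX6 2.07 and XRN2 2.05, against a median of 1.75 over the tested genes. Whether the number of matches goes with the response to triptolide was not tested. The 30 bases below are the stretch richest in the pentamer, ending on a match, from 4 of the members that hold it: DCP2, DCP1A, DDX6 and XRN2. The stretch of DDX6, like that of XRN2, holds 1 match. ATTTA is in capitals, and the letters are those of the GRCh38 transcript strand.
DCP2: actcATTTAttgtcttctggaaaccATTTA
DCP1A: cctcccaaATTTAtatattcaaagtATTTA
DDX6: gttcatccgcactgtaaatacatgtATTTA
XRN2: atgttgcataatacagtggatctgaATTTA
They lie at chr5:113015300-113015329 (plus strand), chr3:53285452-53285481 (minus), chr11:118751372-118751401 (minus) and chr20:21389515-21389544 (plus). A match is a description of the letters and not a site shown to act.

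Without drug, no member passed the test between either knockout and NONT. None of the 10 was called by limma, while among all tested genes 0.00724% were lower and 0.0145% were higher in NUP93-KO, and the shares in EXOSC5-KO were 0.0362% and 0.485%. None had an unadjusted p under 0.05 in either comparison, where the shares of all genes at that threshold were 2.45% lower and 1.75% higher for NUP93-KO, and 2.46% and 6.03% for EXOSC5-KO. The members lay between −0.41 ± 0.39 (XRN1) and −0.046 ± 0.30 (DCP1A) in NUP93-KO on the log2 scale, and between −0.30 ± 0.28 (DCP2) and 0.60 ± 0.39 (XRN1) in EXOSC5-KO. The XRN1 differences turned on the uneven NONT pair. In NUP93-KO the difference was 0.26 without the second untreated NONT library, and in EXOSC5-KO it was −0.063 without the first.

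Under triptolide, 7 members were higher in NUP93-KO than in NONT on the spike-in scale: XRN2, DCP2, EDC3, EDC4, LSM1, PATL1 and DDX6, by 0.56 (EDC3) to 0.82 (DCP2) on the log2 scale, with adjusted p-values of 0.0183 to 0.0474 (limma). In EXOSC5-KO 3 members were higher, EDC3 by 0.72 ± 0.22, EDC4 by 0.71 ± 0.21 and LSM1 by 0.61 ± 0.23 (adjusted p = 0.0190, 0.0180 and 0.0462). Across all tested genes 41.9% were higher in treated NUP93-KO and 39.2% in treated EXOSC5-KO, with log2 medians over all genes of 0.66 and 0.65; the medians over the members were 0.61 and 0.45. DCP1B in NUP93-KO (−0.13 ± 0.41) and XRN1 in EXOSC5-KO (0.16 ± 0.39) had the lowest differences. After rescaling to the same total, by median-of-ratios or on mitochondrial mRNAs, 0 members were higher in either comparison, where the share of all genes ranged from 0.920% to 3.74% (NUP93-KO) and from 1.64% to 8.91% (EXOSC5-KO). The count of 7 fell to 0 without the second treated NONT library, when 5.31% of all genes were higher, or without the first or second treated NUP93-KO library (19.1% and 7.89%). The count of 3 was 0 without the second treated NONT library (8.98% of all genes) or the first or second treated EXOSC5-KO library (14.4% and 14.7%), and 6 without the first or second untreated NONT library (51.4% and 51.7%).

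The difference in response between a knockout and NONT was tested directly, and no member passed. Of all tested genes 0.760% had a smaller loss in NUP93-KO and 0.319% in EXOSC5-KO at an adjusted p under 0.05 (limma). At an unadjusted p under 0.05, 7 members had a smaller loss in NUP93-KO, as did 41.3% of all genes, and 2 (EDC3 and EDC4) in EXOSC5-KO, as did 23.1%. The differences ran from 0.055 ± 0.57 (DCP1B) to 1.11 ± 0.40 (DCP2, adjusted p = 0.0746) for NUP93-KO on the log2 scale, and from −0.44 ± 0.55 (XRN1) to 0.81 ± 0.31 (EDC3, adjusted p = 0.180) for EXOSC5-KO, where the all-gene medians were 0.74 and 0.57. All these comparisons share the NONT libraries. Without the first untreated NONT library, 7 and 5 members passed, as did 50.7% and 38.0% of all genes, and without the first treated NONT library 2 passed for NUP93-KO, where 18.0% of all genes did.

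The other genes of the pathway, 21 in all, covered the remaining LSM ring, other cap hydrolases, decapping adaptors and XRN2 partners, and all were tested. In NONT all 21 were lower after triptolide (background 90.0%), and their median response was −1.85 against −1.62 for all genes. In NUP93-KO 10 were lower (background 55.1%), with a median of −0.76 against −0.92, and in EXOSC5-KO 15 were (background 64.3%), with a median of −1.51 against −1.08. These directions depend on the scale: after median-of-ratios rescaling 9 of the 21 were lower and 7 higher in NONT (background 30.3% and 27.2%), 7 and 6 for NUP93-KO (29.7% and 26.7%) and 8 and 6 for EXOSC5-KO (28.7% and 26.2%). With the same total, 11 were lower and 5 higher in NONT (38.2% and 15.2%).

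Of the 7 other subunits of the LSM rings, 7 were lower in NONT on the spike-in scale, 1 was in NUP93-KO and 3 were in EXOSC5-KO. The shares of all tested genes were 90.0%, 55.1% and 64.3%. After median-of-ratios rescaling 5 were higher and 1 lower in NONT (median 0.71), where 27.2% and 30.3% of all genes were. In each knockout 4 were higher and 1 lower, against 26.7% and 29.7% of all genes for NUP93-KO and 26.2% and 28.7% for EXOSC5-KO. LSM8, which takes the place of LSM1 in the nuclear ring that binds U6 RNA, had the deepest loss of the list in NONT, from 216 and 337 to 28.9 and 26.5 (−3.24 ± 0.39, adjusted p = 1.03e-06). In NUP93-KO it went from 268.4 and 268.7 to 27.3 and 37.9 (−3.02), and EXOSC5-KO gave 182 and 213 before and 46.9 and 20.4 after (−2.63). The LSM1 responses given above were −1.56, −0.82 and −1.07, smaller in size than those of LSM8 in each genotype; this difference was not tested. LSM5, shared by both rings, had the smallest loss, from 767 and 901 to 591 and 526 in NONT (−0.57 ± 0.19, adjusted p = 0.00889). The call of LSM5 was lost without the second treated NONT library (−0.49), and its direction turned after rescaling to the same total or by median-of-ratios.

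**Figure D4:**
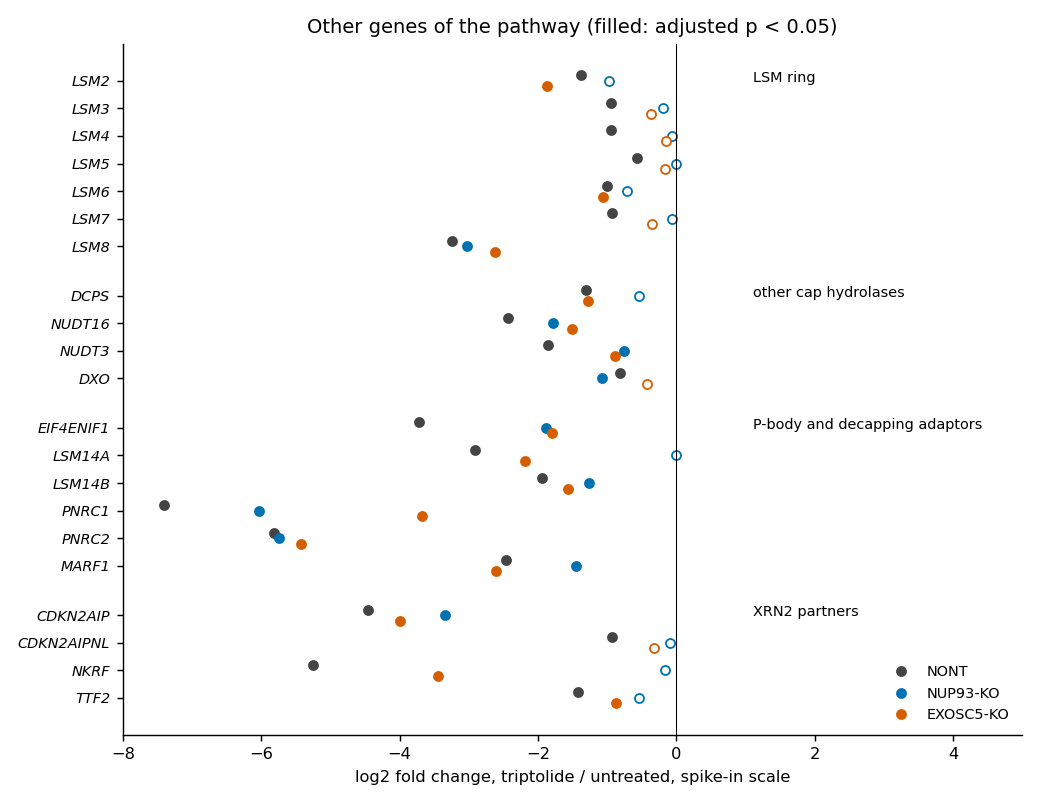
Log2 response to triptolide (spike-in scale) of the 21 other pathway genes, by list and genotype; filled points passed the test, open points did not, and the line marks 0. PNRC1, PNRC2, CDKN2AIP and NKRF (listed at 0 in treated NONT) lie lowest in NONT, and LSM8 lies below the rest of its ring. In NONT 8 of the 21 (5 of them LSM ring genes) turn above 0 after rescaling to the same total. By median-of-ratios 10 do (6 LSM ring genes). The median of all genes in NONT was −0.32 and −0.010 on these scales, so by median-of-ratios a typical gene lies near 0.

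The 4 other cap hydrolases were all lower in NONT on the spike-in scale (90.0% of all genes). In each knockout 3 were lower (55.1% of all genes for NUP93-KO, 64.3% for EXOSC5-KO). By median-of-ratios 1 was lower and 1 (DXO) higher in NONT, where 30.3% and 27.2% of all genes were. NUDT16, a nuclear decapping enzyme, had the deepest loss in NONT (−2.43 ± 0.29), and DXO, which removes incomplete caps, had the smallest (−0.82 ± 0.29, adjusted p = 0.0140). The DXO call was lost without the second untreated or the second treated NONT library (−0.67 and −0.74).

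The 6 adaptors were all lower in NONT and EXOSC5-KO on the spike-in scale (90.0% and 64.3% of all genes), and 5 were in NUP93-KO (55.1%). PNRC1, a nuclear receptor coactivator that binds the decapping complex, had the deepest loss of the 21 genes in NONT on the log2(value + 1) scale, NKRF being listed at 0 in treated NONT, and went from 340.3 and 462 to 1.48 and 1.21, which is about 2.5 reads in each treated library. The DDX6-binding protein LSM14B had the smallest loss, −1.95 ± 0.22, which was still deeper than the all-gene median.

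Of the 4 genes listed as XRN2 partners, 4 were lower in NONT, 1 was in NUP93-KO and 3 were in EXOSC5-KO on the spike-in scale. The shares of all tested genes were 90.0%, 55.1% and 64.3%, and the NONT and EXOSC5-KO counts include NKRF. By median-of-ratios 2 were lower and 1 higher in NONT (30.3% and 27.2% of all genes). The counts were 1 and 2 for NUP93-KO (29.7% and 26.7%) and 1 and 1 for EXOSC5-KO (28.7% and 26.2%). NKRF, a repressor that recruits XRN2 to the nucleolus, stood at 19.4 and 70.6 in untreated NONT and was listed at 0 in both treated NONT libraries. It was also listed at 0 in both treated EXOSC5-KO libraries, and in an untreated and a treated NUP93-KO library, so no fold is given. CDKN2AIPNL, which shares the XRN2-binding domain of CDKN2AIP, had the smallest loss (−0.94 ± 0.26, adjusted p = 0.00275) and turned to higher after rescaling to the same total or by median-of-ratios.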

How the data were processed

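Polyadenylated RNA was sequenced in 12 U2OS libraries. Per the study's methods, the authors pseudoaligned strand-specific reads with kallisto 0.46.1, made gene-level values with tximport, restricted them to protein-coding genes and applied size factors that DESeq2 had estimated from the 92 ERCC rows only. The deposited values are thus a normalised signal and not counts: 17.5% to 27.1% of low values were whole reads within 0.02, so whole reads were not recovered. An error in cell count or spike-in volume moves a whole library. Columns left unused numbered 0.

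Symbols came from GENCODE 44 (GRCh38), where 19584 IDs matched and 2795 did not. Genes with an untreated mean of at least 10 were analysed as log2(value + 1), which understates changes of low genes, with 6 group means in limma 3.58.1 (R 4.3.3, mean-variance trend), 9 two-sided contrasts and Benjamini-Hochberg adjustment over 13811 genes. The code was tested on simulated data. Per-kilobase levels divide by the canonical transcript, whose 3′ untranslated region follows its coding sequence (a stop codon precedes it in 99.5% of transcripts). Windows were checked against the genome.

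All members were named; between genotypes, members past the threshold and the highest and lowest; of the other lists, the deepest and smallest loss in NONT. The members and lists were chosen with earlier results of these data known. Alternatives were 3 rescalings (same total, median-of-ratios, the 13 mitochondrially encoded mRNAs), a pseudocount of 5, a minimum of 50 or none, no trend, a replicate block, each library left out and, chosen after seeing the data, DCP1B summed with its identical row. Python 3.11.15, NumPy 2.4.6, pandas 2.3.3 and matplotlib 3.10.9 were used.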

Additional observations from a re-analysis of the deposited data

Results flagged for a closer look

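PNRC1 was the only named gene whose response differed between genotypes by a test of the difference itself. It read 340.3 and 462 in untreated NONT and 1.48 and 1.21 after triptolide. The NUP93-KO libraries gave 375 and 445 before and 6.62 and 4.09 after, and the EXOSC5-KO libraries 572 and 582 before and 39.7 and 49.2 after. The loss in EXOSC5-KO was smaller than in NONT by 3.73 ± 0.51 on the log2(value + 1) scale (adjusted p = 0.00913, limma), with both treated EXOSC5-KO libraries above both treated NONT libraries. Over the alternatives the adjusted p ran from 0.00149 to 0.160, and the call was lost without the second untreated NONT library (3.51, adjusted p = 0.160). The treated NONT values stand for about 2.5 reads each, so the size depends on the pseudocount and was 2.42 with a pseudocount of 5.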

How the results depend on the processing

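Scale and the choice of libraries both changed results. Responses of members to triptolide changed direction only after rescaling, in 15 cases. On median-of-ratios factors 5, 4 and 4 members were lower and 1, 1 and 1 higher after triptolide in NONT, NUP93-KO and EXOSC5-KO. With equal library totals (the same total) 1 was higher in NONT and 1 in NUP93-KO, where 15.2% and 13.9% of all genes were. XRN2 turned to 0.19, 0.23 and 0.056 with the same total and to 0.51, 0.57 and 0.34 on median-of-ratios, where EDC4 (0.034, 0.14 and 0.13), LSM1 (0.086, 0.077 and 0.0059) and PATL1 (0.059, 0.072 and 0.051) turned too. In NONT, LSM5 became 0.76 and 1.08, DXO 0.51 and 0.82 and CDKN2AIPNL 0.40 and 0.71 on those scales. Members higher under triptolide than in NONT became 0 in both knockouts on each of the 3 rescalings and 1 in both without the mean-variance trend (27.0% and 27.6% of all genes), and 2 were lower in EXOSC5-KO on median-of-ratios (XRN2 and PATL1), where 7.74% of all genes were. With the same total, median-of-ratios and mitochondrial scales, DCP1A in untreated NUP93-KO became 0.067, 0.027 and 0.021, DCP1B in the NUP93-KO difference in response −0.69, −0.67 and −0.57, EDC3 in treated NUP93-KO −0.091, −0.11 and −0.029, EDC4 there −0.068, −0.087 and −0.0065, and XRN1 in treated EXOSC5-KO −0.41, −0.50 and −0.66. With the same total and median-of-ratios, treated NUP93-KO gave −0.011 and −0.029 for XRN2, −0.0071 and −0.025 for PATL1 and −0.024 and −0.043 for DDX6, and LSM1 gave −0.00094 on median-of-ratios. In treated EXOSC5-KO the mitochondrial scale gave −0.11 for EDC3, −0.12 for EDC4 and −0.21 for LSM1, and median-of-ratios gave −0.051 for LSM1. Without the low-value filter the members' median lay −0.72, −0.39 and −0.57 from that of all genes, which then included genes near 0.

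Leaving out single libraries gave 5 to 10 members lower in NUP93-KO, 0 to 7 and 0 to 6 higher under triptolide, 0 to 7 and 0 to 5 with a smaller loss than NONT, and medians of −0.51 to −0.25, −0.19 to −0.11 and −0.45 to −0.21. The lowest count, 5, came without the second untreated NUP93-KO library. XRN1 ran from −1.07 to 0.26 and from −0.063 to 1.26 against untreated NONT, and DCP1A from −0.28 to 0.19. DCP1B ran from −0.51 to 0.25 in treated NUP93-KO and from −0.32 to 0.43 in the NUP93-KO difference in response, and XRN1 from −0.18 to 0.49 in treated EXOSC5-KO and from −1.11 to 0.22 in the EXOSC5-KO difference. The lone library of a group was assumed to vary like the others. Libraries with the same replicate number shared no visible pattern over genes: over 15 pairs of groups, deviations correlated at −0.051 to 0.037. Such correlations cannot tell whether replicates were handled in batches. Without a replicate block 7 and 3 members were higher under triptolide, where 41.9% and 39.2% of all tested genes were. With the block 6 and 2 members were higher, for which the share of all genes is not given here. The other counts of members were the same with the block. The causes were not tested. Depth limits DCP1B most.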
